A study of Drosophila melanogaster with 9 samples.

Results

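The genes for the aminoacyl-tRNA synthetases of Drosophila melanogaster were followed through the intestine. Genes were taken by their symbol, as the code of an amino acid followed by RS, with the suffix -m for the mitochondrial enzyme, and GluProRS was added. The choice used no measured value. It gave 33 of the 17806 genes in the count tables, of which 18 were cytosolic and 15 mitochondrial. The cytosolic enzyme for phenylalanine carries other symbols for its subunits (alpha-PheRS and beta-PheRS), so it was not among the 33 and is described beside them. Cytosolic members without a mitochondrial partner in the set were those for glutamine, glycine, histidine, lysine and threonine.

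Aminoacyl-tRNA synthetases join each amino acid to its tRNA and so set the reading of the genetic code. The cytosol and the mitochondrion translate separate genomes, and in flies most amino acids have a nuclear gene for each place. The enzymes fall into class I and class II by the fold of their catalytic domain, and in animals some of the cytosolic enzymes are held in a multisynthetase complex with the scaffold proteins AIMP1, AIMP2 and AIMP3. Stem cells and enteroblasts, the progenitors of the fly intestine, divide and differentiate to replace enterocytes and enteroendocrine cells.

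The question of the study was how the RNA-binding protein Swm serves these progenitors. RNA-seq was made from sorted GFP-positive progenitors of adult females, as 3 control libraries (genotype WT, titled esgTS) and 3 libraries labelled swm RNAi (titled swm). Each library came from pooled guts of 100 flies and 30000 to 50000 sorted cells. CLIP-seq, which reads the RNA held by an immunoprecipitated protein, was made from whole intestines of WT flies, as 2 Swm immunoprecipitates (IP) and 1 library of total lysate (the input). Each library was depleted of ribosomal RNA. Beyond the title esgTS of the controls, the labels give neither the driver and the duration of the RNA interference nor separate crosses for the replicates. The p-values therefore reflect only the spread among these libraries, which may be technical.

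The RNA-seq libraries held 14627251 to 19962224 counts, the input 4615623, and the Swm IP libraries 2451369 and 8497190. The swm transcript itself was not past the threshold between the RNA-seq groups, at 159, 116 and 157 CPM (counts of a gene scaled to a common library total) in the controls and 159, 136 and 135 CPM in those labelled swm RNAi (edgeR adjusted p = 0.998 for a log2 fold change of -0.0036, SE 0.17). The 8 progenitor markers summed to between 4951 and 7376 CPM over the 6 libraries. Summed enterocyte markers ran from 553 to 788 CPM in the controls and from 829 to 1991 CPM in the swm RNAi libraries, and 0 of the 10 tested were past the threshold. Enteroendocrine markers summed to between 8.23 and 36.9 CPM with Dh31 at 0, and visceral muscle markers to between 658 and 1295 CPM. Tm1 alone gave 611 to 1221 CPM of the muscle sum, and Mhc did not exceed 7.36 CPM in any of the 6 libraries.

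Levels between genes were compared as CPM per kilobase of exon, with CPM taken over library sizes scaled by TMM (a trimmed mean over genes). In control progenitors the cytosolic synthetases stood above the mitochondrial ones. Their median was 29.2, 37.2 and 39.9 CPM per kilobase in the 3 libraries, and the mitochondrial median was 11.2, 9.82 and 9.90. The ratio of the medians was thus 2.62, 3.79 and 4.03 (mean 3.48 ± 0.756, SD, n = 3). All 18 cytosolic members lay above 11.7 CPM per kilobase, the median over all genes tested in RNA-seq, against 6 of the 15 mitochondrial members. The cytosolic genes together took between 0.182% and 0.246% of the counts of a control library, and the mitochondrial genes between 0.0440% and 0.0481%.

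The highest cytosolic level was that of LysRS (gene FBgn0027084, X, 9606363 to 9608884), a member of the multisynthetase complex. It read 54.9, 74.1 and 98.9 CPM per kilobase in the controls (mean 75.9 ± 22.1, SD, n = 3). IleRS, also of the complex, read 64.9, 67.1 and 79.2 (mean 70.4 ± 7.70). ThrRS, which charges threonine, read 53.7, 57.2 and 92.8 (mean 67.9 ± 21.6). The ranges of these 3 genes overlapped, so no order among them was set by these libraries. AlaRS, TyrRS, GlyRS, SerRS, GluProRS and AsnRS followed with means from 57.2 down to 40.9.

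The 3 lowest cytosolic members were AspRS, MetRS and CysRS. CysRS, for cysteine, read 16.8, 14.7 and 16.1 CPM per kilobase. MetRS, for methionine, read 20.6, 19.1 and 18.5. CysRS was below MetRS in every control library. AspRS read 17.5, 15.5 and 26.3, but only 26.5% of its exon bases were free of the exons of other genes, as described below.

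Among the mitochondrial members AspRS-m stood first. AspRS-m (FBgn0051739, 2L, 16827078 to 16832093) read 33.3, 21.2 and 31.6 CPM per kilobase (mean 28.7 ± 6.51, SD, n = 3). PheRS-m, which charges phenylalanine in the mitochondrion, read 17.1, 18.8 and 21.9. TyrRS-m read 16.99, 17.02 and 18.52. Within each control library AspRS-m exceeded both PheRS-m and TyrRS-m, although its range over the controls overlapped with that of PheRS-m. At the low end, MetRS-m read 2.80, 3.12 and 3.33 (mean 3.08 ± 0.27), CysRS-m read 3.13, 4.42 and 3.31, and GluRS-m read 5.89, 3.63 and 3.35.

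From LysRS down to MetRS-m the mean levels spanned 24.6-fold. The span was 4.78-fold within the cytosolic members and 9.30-fold within the mitochondrial ones. Of the 32 pairs of neighbours in the order of means, only 2 had ranges that did not overlap, so the order was resolved in its broad outline and not step by step. AsnRS-m varied most for its level, with 11.2, 8.76 and 3.08 in the controls, and control replicate 3 was the low library. TyrRS and GluRS-m lie 171 bases apart on the same strand of 3L (16417349 to 16419302 and 16415292 to 16417177), with control means of 53.1 and 4.29 CPM per kilobase.

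**Figure D1:**
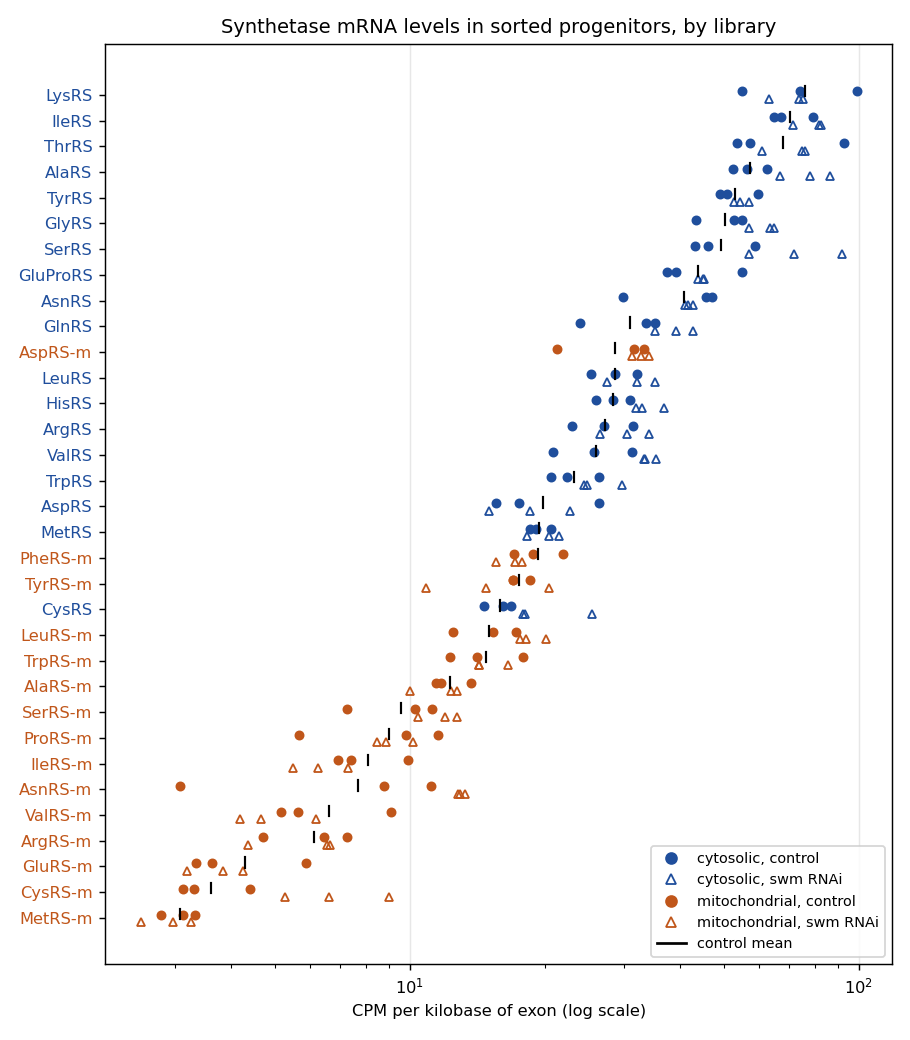
Level of each of the 33 synthetase genes as CPM per kilobase of exon (log scale) in the RNA-seq libraries, with a point for each control and each swm RNAi library. Cytosolic genes lie mostly on the high side, led by LysRS at a control mean of 75.9, and mitochondrial genes on the low side, down to MetRS-m at 3.08, with AspRS-m at 28.7 among the cytosolic genes.

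The set holds 14 pairs of a cytosolic and a mitochondrial gene for the same amino acid, GluProRS being counted for both glutamate and proline. In 13 pairs the cytosolic gene had the higher level per kilobase in every one of the 6 progenitor libraries. The widest control ratio was that of GluProRS over GluRS-m, at 6.35, 10.8 and 16.4 (mean 11.2 ± 5.05, SD, n = 3). It was followed by IleRS over IleRS-m, with 8.792, 9.685 and 7.997 (mean 8.82 ± 0.845). The ratio for glutamate varied between control libraries far more than the ratio for isoleucine did.

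The ratio for asparagine was 2.67, 5.22 and 15.3, of which the highest value came from the library with the low AsnRS-m count. For methionine it was 7.39, 6.12 and 5.56, and for serine 3.84, 5.72 and 6.39. The ratio of GluProRS over ProRS-m was 6.62, 3.99 and 4.76. These pairs shared a range of several-fold in favour of the cytosolic gene, with overlapping libraries.

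The pair for alanine had the tightest control values, 4.58, 4.81 and 4.58. The ratio was 5.74, 3.17 and 4.88 for arginine. It was 5.38, 3.32 and 4.88 for cysteine, and 4.03, 5.56 and 2.84 for valine. All 4 pairs thus held ratios near each other.

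Tyrosine gave 2.99, 2.88 and 3.22, a level gap that was narrow and alike in the 3 controls. Leucine gave 2.29, 1.65 and 1.86. Tryptophan gave 1.59, 1.15 and 2.15. Leucine and tryptophan had the narrowest gaps in favour of the cytosolic gene.

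Aspartate was the exception, with AspRS over AspRS-m at 0.53, 0.73 and 0.83 (mean 0.70 ± 0.16, SD, n = 3). AspRS (2R, 12877004 to 12883168, plus strand) overlaps Nmda1 and the noncoding gene asRNA:CR45141 on the opposite strand and asRNA:CR43468 on its own. Only 601 of its 2266 exon bases lay under no other exon. Counted per kilobase of those free bases, AspRS reached 74.6 CPM in the controls, the second highest of the 33, and its ratio to AspRS-m became 1.97, 2.74 and 3.13 (mean 2.61 ± 0.588). The direction for aspartate therefore turned with the length used, and the share of reads lost from the overlapped bases was not measured.

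**Figure D2:**
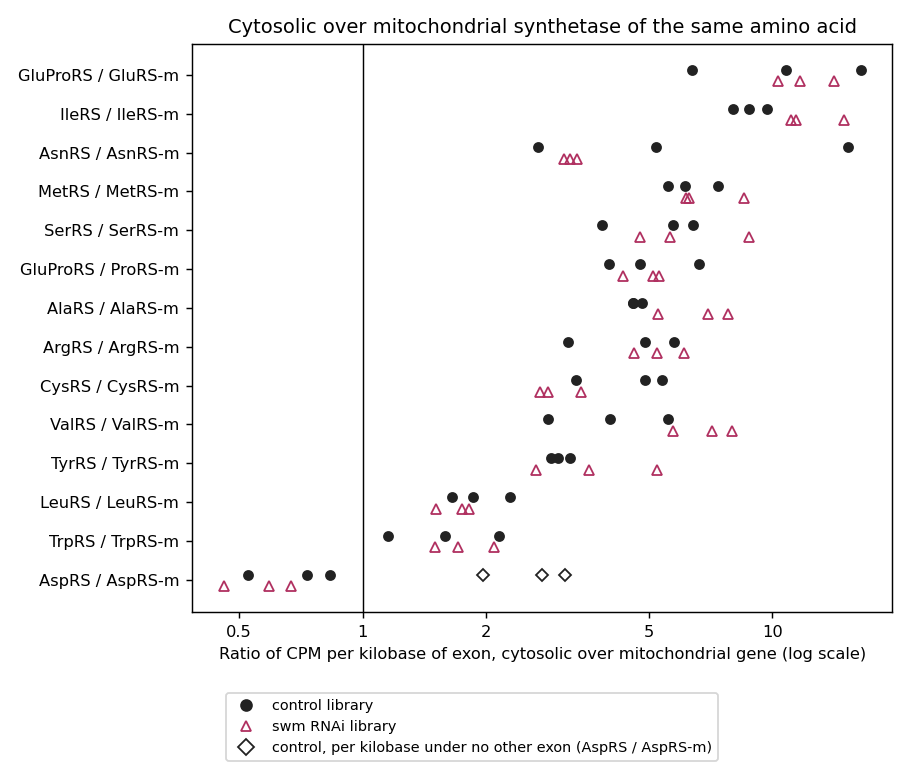
Ratio of the cytosolic to the mitochondrial gene for the same amino acid, from CPM per kilobase of exon (log scale), with filled points for the control libraries and open triangles for the swm RNAi libraries. Ratios lie above 1 except for aspartate, where the open diamonds give the control values per kilobase of exon that no other gene covers (mean 2.61 in place of 0.70).

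Overlap with other genes also set which members could be seen in CLIP-seq, where reads were counted over the whole gene span with introns. HisRS and SerRS-m had 0 counts in all 3 CLIP libraries, although their levels in control progenitors were 28.4 ± 2.47 and 9.58 ± 2.09 CPM per kilobase (SD, n = 3). HisRS (X, 18515428 to 18520445, plus strand) lies wholly inside Bx on the same strand, and SerRS-m (3R, 15340667 to 15343218, plus strand) wholly inside Nagk on the opposite strand. Neither has a base that is free of another gene. Among protein-coding genes with at least 5 CPM in RNA-seq, 235 of 241 whose span had no base free on either strand but some free on their own were also at 0 in all CLIP libraries (97.5%). SerRS-m is of this class. In the class of HisRS, with no base free on its own strand, 137 of 139 were at 0 (98.6%). The share was 10 of 5596 (0.179%) for genes with at least 1 free base. The counts of 0 for HisRS and SerRS-m were accordingly not read as a level, and 31 members were analysed in CLIP-seq.

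In the input of whole intestines the order of the synthetases differed in part from that in sorted progenitors. SerRS stood first with 87.8 CPM per kilobase of gene span, ahead of TyrRS with 55.9 and AsnRS with 53.3. LysRS, first in progenitors, was the 12th with 25.9. Per kilobase of span free of other genes, AspRS read 59.4 in place of 11.7, which would put it second. PheRS-m was the 7th with 32.8 and AspRS-m the 17th with 16.7. The tables use different lengths and were scaled separately, and the input is 1 library, so no test was made. Across the 31 genes the control level and the input level had Pearson's r = 0.887 and Spearman's rho = 0.854, given as a description over genes that share their libraries.

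The comparison of the swm RNAi libraries with the controls asked whether the RNA level of any synthetase differed. Of the 33 genes, all of which were tested, 0 were past the threshold of an adjusted p of 0.05 by edgeR's quasi-likelihood test with Benjamini-Hochberg adjustment over 8899 genes. Of all genes tested 3.17% were past it, 2.34% higher and 0.832% lower. At an unadjusted p under 0.05, 4 members were higher (12.1%) and 0 lower, against 7.52% and 4.92% of all genes and 12.4% in either direction. For 28 of the 33 (84.8%) the 95% interval of the fold change lay within 2-fold of no change, against 50.3% of all genes. DESeq2 called 0 members as well, and so did the authors' deposited table, where the smallest adjusted p of a member was 0.246.

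The largest fitted change was that of CysRS-m (FBgn0033900, 2R, 14159096 to 14161262), for mitochondrial cysteine. It read 6.59, 9.31 and 6.97 CPM in the controls and 18.9, 13.9 and 11.1 in the swm RNAi libraries. Every swm RNAi library was above every control, from counts between 129 and 270. Its fitted log2 fold change of 0.94 (SE 0.33, 95% interval 0.21 to 1.68) had an edgeR adjusted p of 0.213.

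AsnRS-m came next by size, with 16.55, 12.98 and 4.57 CPM in the controls and 19.6, 19.0 and 19.2 in the swm RNAi libraries. The groups did not overlap, and the spread lay in the controls. Its log2 fold change was 0.76 (SE 0.41, edgeR adjusted p = 0.521), and it was 0.39 without control replicate 3 and 1.11 without control replicate 1. The third was SerRS, for cytosolic serine, with 82.5, 112 and 88.4 CPM against 175, 137 and 109. Here the lowest swm RNAi library lay inside the control range. The log2 fold change of SerRS was 0.57 (SE 0.20, 95% interval 0.12 to 1.02, edgeR adjusted p = 0.218), and 0.37 without swm RNAi replicate 1.

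AlaRS, which charges alanine, was 1 of the abundant members without overlap. It read 173, 186 and 206 CPM in the controls and 284, 257 and 220 in the swm RNAi libraries, and its log2 fold change of 0.43 (SE 0.17) had an edgeR adjusted p of 0.283. At the other end, ValRS-m read 16.8, 18.3 and 29.5 CPM against 20.1, 15.2 and 13.6 (log2 fold change -0.40, SE 0.29). IleRS-m read 21.4, 20.1 and 28.7 against 21.2, 18.1 and 16.0 (-0.35, SE 0.25). PheRS-m read 26.1, 28.7 and 33.4 against 27.1, 23.8 and 26.1 (-0.20, SE 0.21). In these 3 genes the groups overlapped, and control replicate 3 was the highest library of each. Without that library the log2 fold changes were -0.11, -0.17 and -0.09.

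The groups did not overlap in 9 of the 33 genes, with the swm RNAi libraries higher in all 9 (27.3%, against 12.3% of all genes) and lower in 0 (against 7.94%; 20.2% in either direction). They were the cytosolic HisRS, GlyRS, GlnRS, CysRS, ValRS and AlaRS and the mitochondrial LeuRS-m, AsnRS-m and CysRS-m. Their log2 fold changes began at 0.25 for HisRS and 0.29 for GlyRS, so most of these separations were small.

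Over the 18 cytosolic genes the median log2 fold change was 0.16, with 16 above 0 and 2 below. Over the 15 mitochondrial genes it was -0.07, with 7 above 0 and 8 below. Over all genes tested it was 0.03, with 4737 above 0 and 4162 below. The cytosolic median was 0.07 without swm RNAi replicate 1 and 0.29 without control replicate 3. The mitochondrial median turned to above 0 without control replicate 2 (0.0031), without swm RNAi replicate 1 (0.0024) or without swm RNAi replicate 2 (0.0324). Class I and class II cytosolic enzymes had medians of 0.16 and 0.15, with GluProRS, which joins an enzyme of each class, in neither. The 8 genes of the multisynthetase complex had a median of 0.09 and the 10 other cytosolic genes one of 0.27. Summed enterocyte markers were also higher in each swm RNAi library than in any control, as given above. Jon65Aiv, yip7 and betaTry, which encode secreted proteases, made up most of that rise in the sum, whereas Myo31DF was lower in every swm RNAi library (330, 282 and 316 CPM against 259, 247 and 239). Of the 10 enterocyte markers tested, 6 had a log2 fold change above 0 and 4 below, and their part in the synthetase values was not tested. In such bulk samples, fewer cells of a type and less RNA per cell cannot be told apart.

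**Figure D3:**
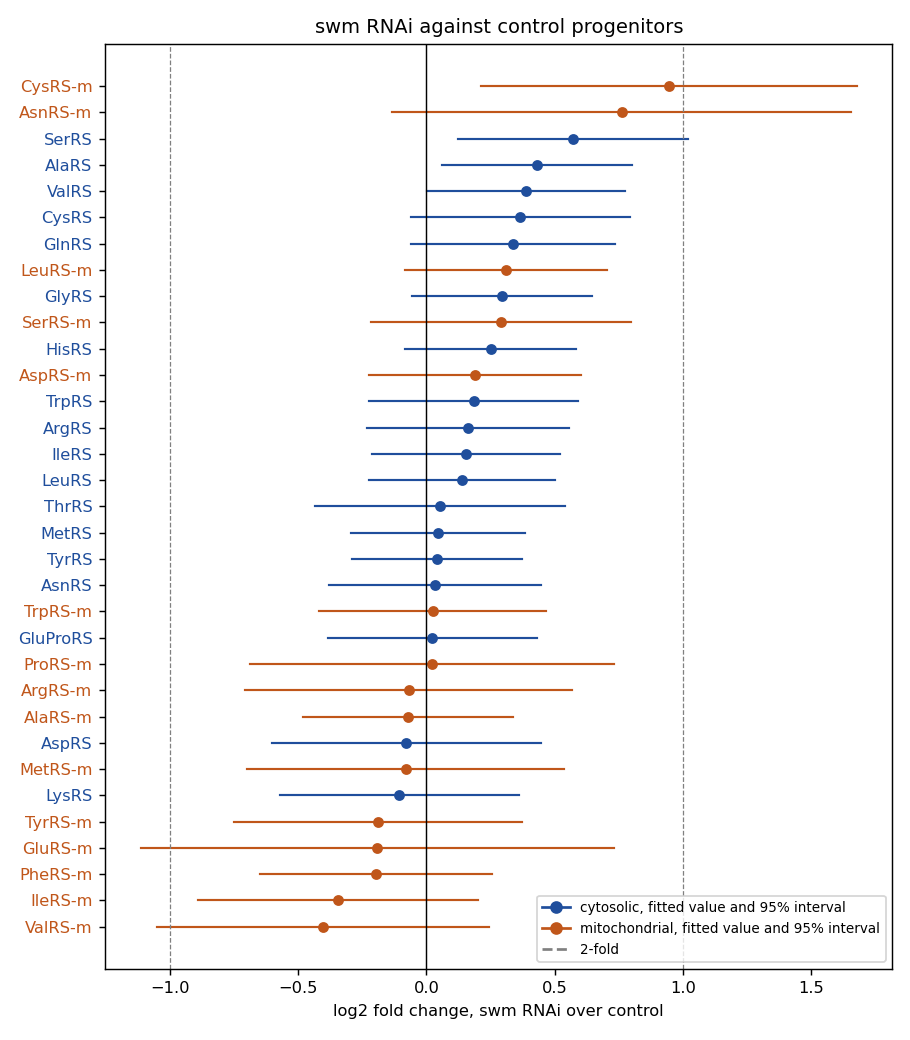
Fitted log2 fold change of each synthetase gene in the swm RNAi libraries over the controls, with the 95% interval from edgeR and dashed lines at 2-fold, ordered by size. None of the 33 was past the adjusted threshold, and the intervals of ValRS-m, GluRS-m, SerRS, AsnRS-m and CysRS-m reach beyond 2-fold.

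The ratio of the cytosolic to the mitochondrial median was 4.01, 4.08 and 3.52 in the swm RNAi libraries (mean 3.87 ± 0.304, SD, n = 3), which overlapped with the controls. Among the 14 pairs, the control and swm RNAi ratios did not overlap for 3 (21.4%), those for isoleucine, alanine and valine. Of all single genes 20.2% did not overlap in either direction. That share is for levels of single genes, and none was computed for ratios between genes. The ratio for isoleucine averaged 8.82 in the controls and 12.5 in the swm RNAi libraries, that for alanine 4.66 and 6.67, and that for valine 4.14 and 6.94. An exact two-sided permutation test of 3 libraries against 3 cannot go below p = 0.1, and no other test was made of these ratios.

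Among companions of the synthetases in RNA-seq, 0 were past the threshold, over the 6 synthetase partners, the 6 tested cytosolic elongation factors, the 11 tested genes of mitochondrial translation and the 11 genes of the amino acid response. The subunits of cytosolic PheRS had a log2 fold change of 0.17 for alpha-PheRS (SE 0.20) and of -0.09 for beta-PheRS (SE 0.17). eEF1alpha1, which brings charged tRNAs to the ribosome, had 0.17 (SE 0.15), and eEF2, which moves the ribosome on, had 0.37 (SE 0.17, edgeR adjusted p = 0.384).

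In mitochondrial translation 5 of the 11 were above 0 and 6 below. Its most abundant genes mEFTu1 and mEFTs had a log2 fold change of -0.06 (SE 0.15) and of 0.06 (SE 0.17). Named after their values were seen, mEFG1, the mitochondrial counterpart of eEF2, had -0.98 (SE 0.27, edgeR adjusted p = 0.0972), and mRF1, a mitochondrial release factor, had 1.00 (SE 0.42, edgeR adjusted p = 0.339). crc, the fly ATF4 that raises transcription of amino acid genes under stress, read 623, 628 and 426 CPM in the controls and 879, 747 and 800 in the swm RNAi libraries. Every swm RNAi library was above every control, as for 12.3% of all genes, and the log2 fold change of 0.53 (SE 0.19) had an edgeR adjusted p of 0.235. The same separation held for Gcn2, PEK and trbl. For CG6287, Shmt and Nmdmc every swm RNAi library was below every control, as for 7.94% of all genes. Thor, the fly 4E-BP that restrains translation initiation, had -0.08 (SE 0.19). Of the 11 genes of the amino acid response, 4 were above 0 (Gcn2, PEK, crc and trbl) and 7 below, the lowest being CG6287 with -1.66 (SE 0.53, edgeR adjusted p = 0.165).

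The comparison of the Swm IP with the input asked whether synthetase RNA was held by Swm in the whole intestine. No member was higher in the IP by edgeR's adjusted p, and 2 of the 31 tested (6.45%) were lower, against 18.2% of the 8375 genes tested, of which 9.27% were higher and 8.97% lower. No mock immunoprecipitate was analysed here, and the fit has 1 residual degree of freedom with the lone input assumed to vary like the IP libraries.

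PheRS-m (FBgn0275436, 2R, 13968308 to 13969902) read 52.4 CPM in the input against 22.6 and 23.8 CPM after IP, from 212, 59 and 217 counts. Both IP libraries were below the input by about the same amount. The log2 ratio was -1.17 (SE 0.41, edgeR adjusted p = 0.0318). SerRS (FBgn0031497, 2L, 3035493 to 3037403), a gene without introns, read 168 CPM in the input and 104 and 97.1 in the IP, a log2 ratio of -0.74 (SE 0.27, edgeR adjusted p = 0.0429). These calls depended on the processing. DESeq2, library sizes without TMM and removal of the gene length trend each left 0 of the 31 lower. The log2 ratios of PheRS-m and SerRS were -1.13 and -0.70 with DESeq2, -0.89 and -0.46 with library sizes alone, and -0.58 and -0.30 with the length trend removed. The authors' deposited table also had none, with a smallest adjusted p of 0.187.

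GluRS-m, for mitochondrial glutamate, had the lowest ratio from few reads, with 14 counts in the input and 0 and 9 in the IP libraries (log2 ratio -2.44, SE 1.87). ArgRS-m read 17.5 CPM in the input and 5.37 and 8.67 in the IP (-1.28, SE 0.68, edgeR adjusted p = 0.197). TrpRS, for cytosolic tryptophan, read 54.9 against 33.0 and 21.5 (-1.03, SE 0.40, edgeR adjusted p = 0.0579). All 3 genes were below the input in both IP libraries without passing the test. With a minimum count of 50 in the filter, TrpRS passed at an edgeR adjusted p of 0.0450.

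Before the gene length trend was removed, the highest ratio was that of AspRS-m, with 83.5 CPM in the input and 116 and 97.2 in the IP (log2 ratio 0.35, SE 0.30). AsnRS-m followed with 4.20 CPM against 7.29 and 3.18 (0.26, SE 1.08), where the IP libraries lay on opposite sides of the input and the ratio was -0.39 without Swm IP replicate 1. LysRS read 65.2 against 81.7 and 70.9 (0.22, SE 0.33). GluProRS, the bifunctional enzyme of the complex, read 167 against 187 and 186 (0.16, SE 0.26), a ratio that turned to -0.14 with the gene length trend removed.

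Of the 31 genes, 22 were below the input in both IP libraries (71.0%, against 41.7% of all genes), 4 were above it in both (12.9%, against 40% of all genes), and 5 lay on opposite sides, where 81.7% of all genes lay on the same side. At an unadjusted p under 0.05, 6 members were lower (19.4%, against 14.2% of all genes) and 0 higher (against 15.1%; 29.3% in either direction). The 6 were PheRS-m and the cytosolic SerRS, TrpRS, GlyRS, ThrRS and CysRS. The 95% interval lay within 2-fold of no change for 10 of the 31 (32.3%, against 13% of all genes).

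The median log2 ratio was -0.36 over the 17 cytosolic genes, of which 14 were below 0, and -0.56 over the 14 mitochondrial genes, of which 11 were below 0. It was 0.0036 over all genes tested, with 4197 above 0 and 4178 below. Without Swm IP replicate 1 the cytosolic median was -0.52, and without Swm IP replicate 2 the mitochondrial median was -0.36. At a minimum count of 50, which kept 24 members, the mitochondrial median was -0.23 and the cytosolic one -0.36, so the order of the compartments turned. The 8 genes of the multisynthetase complex had a median of -0.26, with 3 above 0 (LysRS, GluProRS and GlnRS). The 9 other cytosolic genes had a median of -0.60, and all 9 were below 0. Class I and class II cytosolic enzymes had medians of -0.33 and -0.51.

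**Figure D4:**
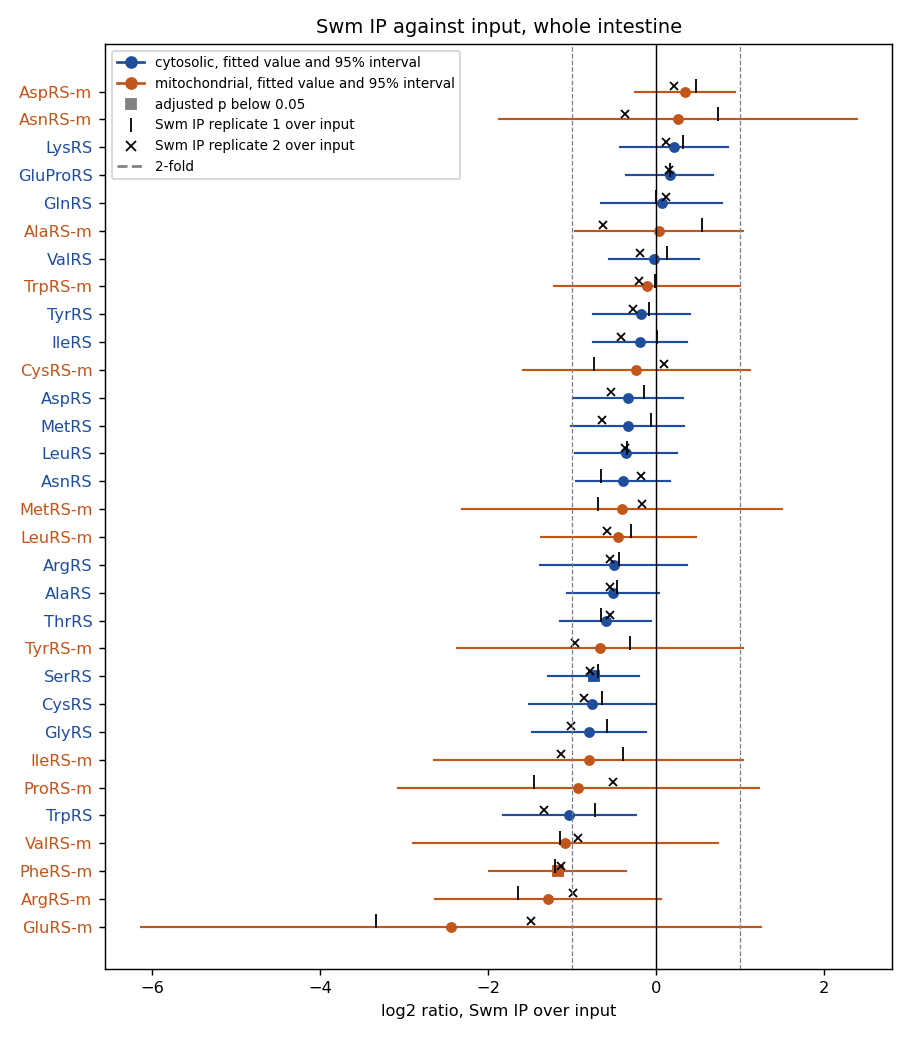
Fitted log2 ratio of the Swm IP over the input for the 31 synthetase genes with counts in CLIP-seq, with the 95% interval from edgeR and dashed lines at 2-fold, ordered by size. Most values lie below 0, from GluRS-m at -2.44 to AspRS-m at 0.35, and PheRS-m and SerRS are the 2 past the adjusted threshold.

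Gene length moved with the IP ratio. Over the 8375 genes tested, the log2 ratio had r = 0.49 and rho = 0.61 with the log2 gene span. When genes were split into 10 equal groups by span, the group with the shortest spans (median 771 bases) had a median log2 ratio of -1.18, and the group with the longest (median 41946 bases) had 1.19. The synthetase genes span 1595 to 10949 bases with a median of 2760, and among them r was 0.34 and rho 0.35 (n = 31 genes of the same libraries, a description). The group with a median span of 2758 bases, the nearest to the synthetases, had a median log2 ratio of -0.17.

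With the length trend removed, 23 of the 31 members were below 0 and 8 above, and 0 were past the threshold (smallest edgeR adjusted p 0.278). The cytosolic median was then -0.30 and the mitochondrial median -0.37, against 0.02 over all genes. PheRS-m had the shortest span of the 31. The genes of the complex have a median span of 3944 bases and the other cytosolic genes one of 2652.5 bases. The latter is over 10 genes with HisRS (5018 bases), which had no counts in CLIP-seq. With the trend removed the median log2 ratio was -0.24 for the complex and -0.48 for the 9 others tested. The order at the top changed with the trend removed, to AsnRS-m (0.84), LysRS (0.46), GlnRS (0.33), TyrRS (0.25) and AspRS-m (0.16). MetRS-m, with the longest span, went the other way, from -0.40 to -0.96 (SE before removal 0.97).

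**Figure D5:**
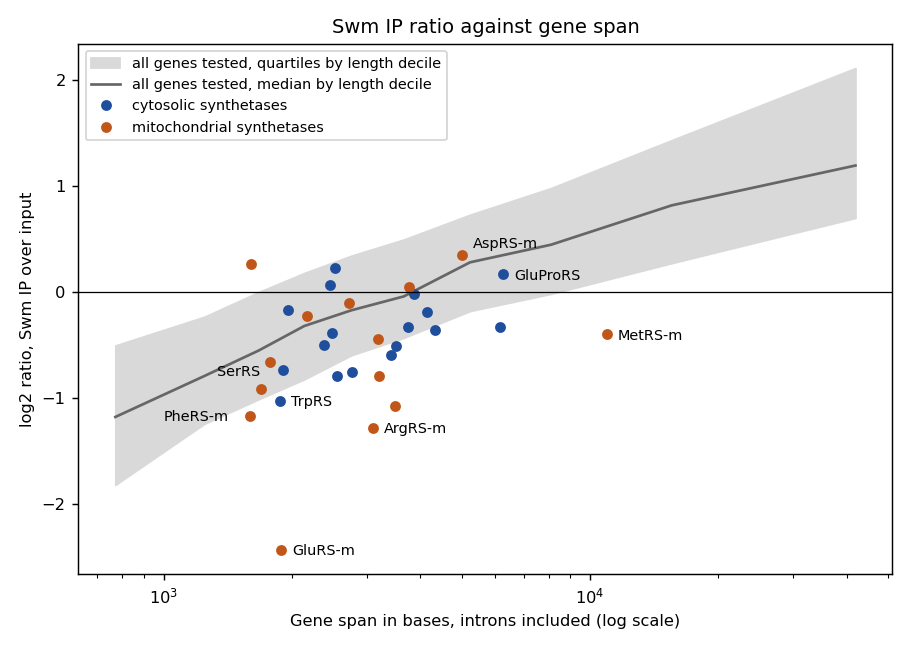
Log2 ratio of the Swm IP over the input against gene span in bases (log scale) for the 31 synthetase genes, with the line and band giving the median and quartiles of all genes tested in each of 10 groups by span. The band climbs from a median of -1.18 at the shortest spans to 1.19 at the longest, and 25 of the synthetase genes lie below 0.

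Summed enterocyte markers came to 58034 CPM in the input against 26955 and 32777 CPM after IP. Of the 11, 6 were past the threshold lower and 1 higher, against 8.97% and 9.27% of all genes tested. Summed visceral muscle markers came to 2380 CPM in the input against 2970 and 9469 CPM after IP, with 1 of 9 past the threshold. In Swm IP replicate 2, sls and Mhc made up 5311 and 2298 CPM of that sum, whereas Mlc2 and Mp20 were below the input in both IP libraries. Progenitor markers summed to 407 CPM in the input against 617 and 731 CPM after IP, with 1 of 8 past the threshold, higher. Sox21a and Sox100B of that list were below the input in both IP libraries. Enteroendocrine markers summed to 239 CPM in the input against 135 and 125 CPM after IP, with 1 of 10 past the threshold, lower (AstC). Against that sum, pros and Rab3 were above the input in both IP libraries. The sums for fat body, trachea, hemocytes, Malpighian tubule and ovary were each above the input in both IP libraries. Those for ovary, hemocytes and trachea were low in the input, at 0.494, 5.68 and 9.88 CPM. Of the ovary sums of 11.9 and 8.56 CPM after IP, Vm26Aa made up 6.91 and 4.94 CPM. The ovary marker nos and the hemocyte marker He had no counts in CLIP-seq. These marker sums moved with the comparison, and their part in the synthetase ratios was not tested.

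Among the companions of the synthetases in CLIP-seq, 3 of the 7 cytosolic elongation factors were lower in the IP, against 8.97% of all genes tested. These were eEF1beta, an exchange factor for eEF1alpha, with 435 CPM in the input and 224 and 237 in the IP (log2 ratio -0.92, SE 0.25, edgeR adjusted p = 0.0031), eEF1delta (-1.06, SE 0.35, edgeR adjusted p = 0.0182) and eEF5 (-1.50, SE 0.25, edgeR adjusted p = 5.28e-07). The other elongation factors were not past the threshold. Their log2 ratios were 0.09 for eEF1gamma, 0.45 for eEF2, 2.17 for eEF1alpha2 (SE 1.82) and -0.56 for eEF1alpha1. Gene length was not taken into account in these ratios. None of the 6 synthetase partners was past the threshold, at a median of -0.99. alpha-PheRS had a log2 ratio of -0.66 (SE 0.42) and beta-PheRS one of 0.14 (SE 0.44). The 3 scaffold genes of the complex, named here after their values were seen, had -1.46 (AIMP1, edgeR adjusted p = 0.0639), -1.23 (AIMP2, adjusted p = 0.102) and -1.66 (AIMP3, adjusted p = 0.0979). The ratios of the partners and scaffold genes were likewise given without taking gene length into account.

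Of mitochondrial translation and of the amino acid response, 0 of 9 tested genes each were past the threshold in CLIP-seq. mEFTu1, mRRF1, AsnS and aay had 0 counts in all 3 CLIP libraries, and GatC, a subunit of the amidotransferase that makes glutaminyl-tRNA in mitochondria, was at 0 in RNA-seq as well. In RNA-seq mEFTu1 read 161 to 190 CPM and AsnS 22.5 to 47.3 CPM. The overlap of these genes with others was not examined. As for HisRS and SerRS-m, their counts of 0 were not read as a level.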

How the data were processed

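For RNA-seq and CLIP-seq the authors deposited raw counts of reads in genes. Tools in the submitters' processing notes are STAR 2.7.3a, cutadapt 2.9, featureCounts, Subread 2.0.0, SAMtools 1.10 and DESeq2. Strand setting, annotation and genome build are not given in the sources used here. According to its header (per the file headers), each table has a gene length, which matched the exon length of all 33 members in the RNA-seq table and the gene span in the CLIP-seq table. Coordinates are from the BDGP6 annotation and equalled the 31 member coordinates given in the authors' IP table. The authors' deposited tables give a log2 fold change and an adjusted p-value per gene and were used only where named. A further 9 per-sample columns were not used. A row with no gene name was left out of each table (at most 5 counts in a library).

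Tests on counts used edgeR 4.0.16 in R 4.3.3 (filterByExpr with a minimum count of 10, TMM, robust quasi-likelihood fit, Benjamini-Hochberg adjustment over all genes tested, threshold 0.05), separately for each assay, and were checked on simulated data. Standard errors are the fold change over the root of the F statistic. Log2 ratios of single IP libraries use a prior count of 2. The length trend was removed by loess (span 0.3). DESeq2 1.42.0, other scalings, filters, a replicate block and each replicate left out were alternatives. The members, the lists and the rule that named genes (members past a threshold, the 3 highest and 3 lowest by level, fold change and IP ratio, and for other lists the genes past it, failing which the 2 of highest CPM) were chosen with earlier results of these data known. Genes described outside that rule (AlaRS, TrpRS, GluProRS in the IP, elongation factors not past the threshold in the IP, the AIMP genes, Slimp, mEFG1, mRF1, single response genes and single marker genes) were chosen after their values were seen.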

Additional observations from a re-analysis of the deposited data

How the results depend on the processing

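In the swm RNAi comparison 0 members were called under every setting tried: DESeq2, DESeq2 size factors, library sizes alone, other filters, the robust option off, a replicate block and each replicate left out. The cytosolic median log2 fold change was 0.0952 with library sizes alone, and between 0.0714 and 0.286 with 1 replicate left out. The mitochondrial median ran from -0.133 to 0.0324 with 1 replicate left out. Deviations from the group means of same-numbered control and swm RNAi replicates had correlations of -0.0631, -0.0487 and 0.0040. No shared variation by replicate number was seen, and the labels do not say whether the replicates were paired. The replicate block gave medians of 0.162 and -0.0732 and moved the calls over all genes from 208 higher and 74 lower to 211 and 76.

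In the Swm IP comparison the 2 members lower became 0 with DESeq2, with the length trend removed and with library sizes alone, 1 with DESeq2 size factors or the robust option off, and 3 with a minimum count of 50. The cytosolic median became -0.0740 with library sizes alone, a scaling that moved the median of all genes to 0.29, and lay between -0.522 and -0.302 with 1 IP replicate left out. The mitochondrial median was -0.505 with DESeq2, -0.513 with its size factors, -0.369 with the length trend removed, -0.273 with library sizes alone, -0.228 over the 24 members kept at a minimum count of 50, and between -0.609 and -0.364 with 1 IP replicate left out. The cause of these shifts was not tested. Leaving out an IP replicate leaves no residual degree of freedom, so no call was made.

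The ratio of cytosolic to mitochondrial level in controls was 3.66 with means in place of medians, 4.07 without division by length, 4.15 per kilobase free of other exons (added after the data were seen), and 3.20 to 3.91 with 1 replicate left out. Over all genes, DESeq2 called 320 higher and 149 lower in swm RNAi. In the IP, against 776 higher and 751 lower, it called 535 and 397, the fit with the length trend removed 140 and 392, and library sizes alone 1114 and 425. Any count without a filter gave 351 and 176 in swm RNAi. Without a swm RNAi replicate the calls were 114 to 135 higher and 24 to 27 lower, and without control replicate 1 they were 276 and 116. Low counts limit GluRS-m, AsnRS-m and ProRS-m in CLIP-seq, whose standard errors exceed 1.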
